A study of Sus scrofa with 2 samples.

Results

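Steroid hormone synthesis genes were followed in granulosa cells of the pig, the follicle cells that nurse the oocyte and secrete progesterone and oestradiol. The genes were chosen by name: STAR, STARD3, TSPO and SCARB1 of cholesterol delivery, FDX1 and FDXR of mitochondrial electron transfer, HSD3B1, HSD17B1 and HSD17B4 of the dehydrogenases, and the sterol hydroxylase CYP27A1. Of these 10 genes, 9 had a row among the 34570 genes of the tables, and FDX1 was not analysed here. Cells came from ovaries of female Chinese Erhualian pigs and received a control siRNA (NC-siRNA) or an siRNA against SMAD4 (SMAD4-siRNA), the shared partner of the receptor-activated SMADs. RNA of 3 individuals per group was pooled into 1 library per group, so no spread between animals can be seen, and the sources used here do not say whether both pools came from the same animals. The age of the animals and the dose and duration of treatment were not given in the sources used here.

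Steroid hormones are made from cholesterol. Cells take cholesterol up from lipoproteins through receptors such as SCARB1, and STAR moves it to the inner mitochondrial membrane, where CYP11A1 cuts its side chain to give pregnenolone with electrons that FDXR passes on through FDX1. HSD3B1 turns pregnenolone into progesterone, and HSD17B1 turns oestrone into the more potent oestradiol. TGF-beta family signals, which SMAD4 carries into the nucleus, are known to shape how far granulosa cells go along this pathway before and after ovulation.

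The tables hold RPKM scaled to the upper quartile of each library, so values are per length and levels can be compared between genes. They all fell on whole reads, which gave at least 17680952 reads on genes for control and 17394711 for SMAD4-siRNA. Read numbers below are the smallest that fit the values and are lower bounds. Where the true reads are a whole multiple of them, the intervals given are too wide. Ranges after a level or a ratio are 95% intervals for counting error alone, computed on these smallest reads (exact Poisson for levels, exact Clopper-Pearson for ratios). They hold no spread between animals or transfections, and with no molecular tags described, several reads may come from 1 molecule. With no replicates there is no test between conditions, and each difference is one between 2 libraries. SMAD4 itself had a value of 85.0 in the control library and 47.9 in the library labelled SMAD4-siRNA, a ratio of 0.563. Of the granulosa markers, GATA4, WT1, FOXL2 and INHA were present, FSHR had 9 and 7 reads, and CYP19A1, AMH and INHBB were listed at 0 in both libraries. A listed 0 says nothing of expression here, since POR and VDAC2, which most cells use, were also listed at 0.

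The 9 genes spanned a wide range of levels and kept the same order in both libraries. HSD3B1 was the most abundant, followed by TSPO, SCARB1, HSD17B4, FDXR, STARD3, CYP27A1, HSD17B1 and STAR. The highest level was 2495 times the lowest under control siRNA and 2083 times the lowest under SMAD4-siRNA. FDXR, STARD3 and CYP27A1 could not be ordered beyond counting error in the control library, where their intervals overlapped, nor could HSD17B1 and STAR in either library. In the SMAD4-siRNA library the intervals of FDXR and STARD3 did not overlap, and that of CYP27A1 lay below both.

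**Figure D1:**
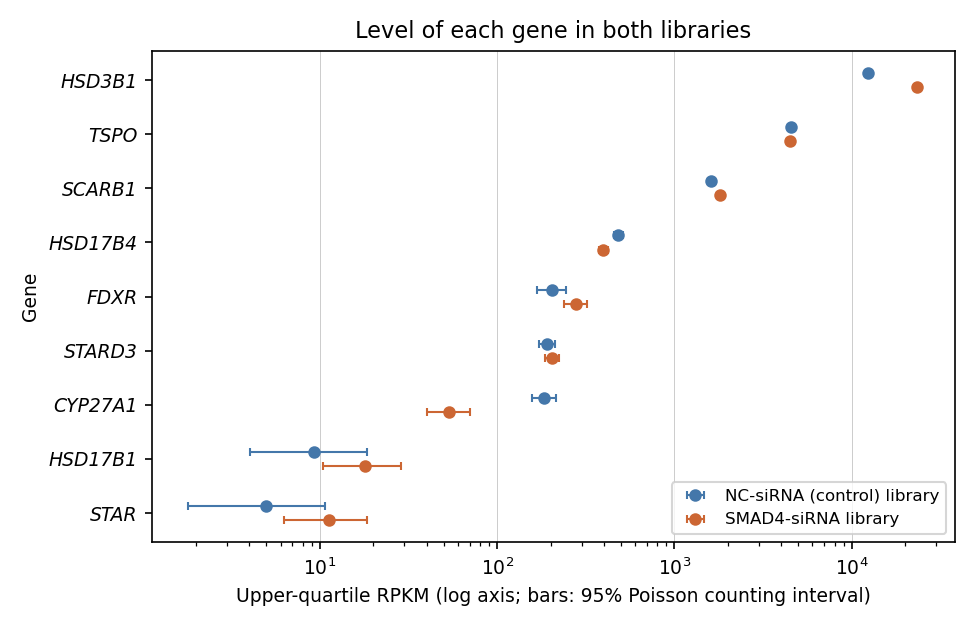
Level of each gene in upper-quartile RPKM on a log axis, with the control library in blue and the SMAD4-siRNA library in orange. Bars are 95% Poisson counting intervals, hidden behind the points where reads are many. HSD3B1 lies further right and CYP27A1 further left in the SMAD4-siRNA library, with intervals that do not overlap.

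Between the libraries the set did not move one way. HSD3B1 and FDXR were higher in the SMAD4-siRNA library, SCARB1 was slightly higher, TSPO and STARD3 were close to 1, HSD17B4 was slightly lower, and CYP27A1 was lower by more than 3-fold. STAR and HSD17B1 had higher values on few reads, with intervals that held 1. The 2-fold rule asked for a log2 ratio, computed on value + 1, of 1 or beyond in either direction, for genes whose values averaged 1 or more. That scale understates changes of low genes. By that rule 1 of the 9 genes, STAR, was higher and 1, CYP27A1, was lower, though STAR no longer passed with a pseudocount of 5. Of all 16609 genes measured, 7.17% were higher and 6.68% lower, so the share of 1 in 9 in each direction is near that background. With libraries matched on the sum of values, 1417 genes were higher and 976 lower in place of 1191 and 1110, and HSD3B1 was past 2-fold beside STAR. With each library rescaled to sum to 1000000, as TPM does, 208 were higher and 112 lower. All values are then smaller, so the pseudocount and the minimum weigh more, and STAR falls under the minimum while HSD3B1 is past 2-fold. Among the 9664 genes with at least 100 reads over both libraries, where 1.32% were higher and 1.12% lower, 0 of 7 genes of the set were higher and 1 was lower. The median log2 ratio of the 9 was 0.16, and 0.10 over the 7 with at least 100 reads, beside -0.05 and -0.06 over all genes with the same minimums.

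The counting interval lay wholly above 1 for HSD3B1, SCARB1 and FDXR, wholly below 1 for HSD17B4 and CYP27A1, and held 1 for the other 4. Among all measured genes 12.7% had an interval above 1 and 21.5% below 1. These shares were 17.6% and 32.4% among genes with at least 100 reads and 19.8% and 46.6% among those with at least 1000, so a small difference with an interval off 1 is common for a well-read gene.

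**Figure D2:**
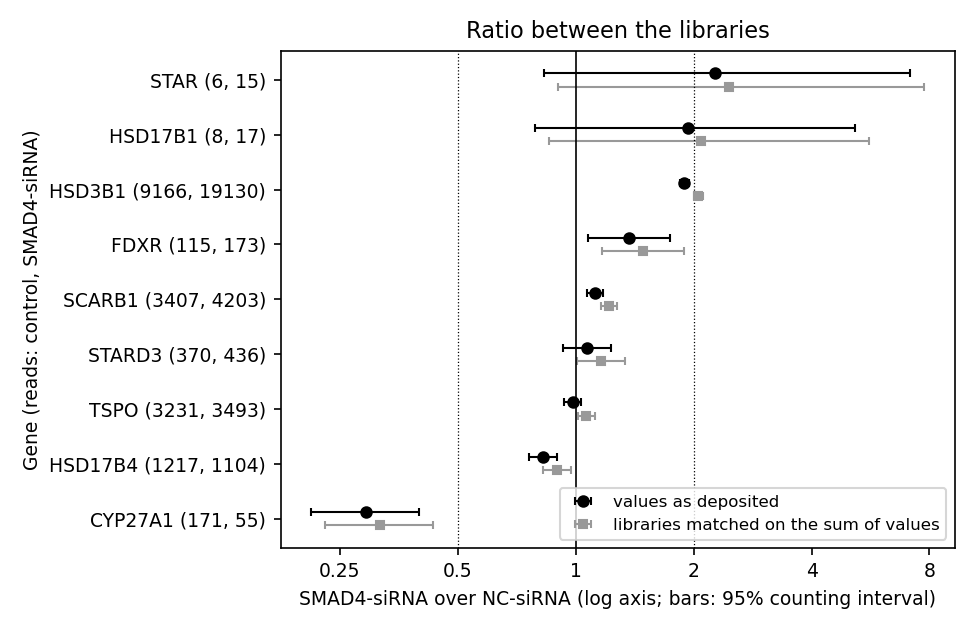
Ratio of SMAD4-siRNA over control for each gene on a log axis, with reads in each library beside the name. Black points use the values as deposited, grey squares have both libraries matched on the sum of all values, bars are 95% counting intervals, and dotted lines mark 2-fold. HSD3B1 at 1.90 and CYP27A1 at 0.292 have intervals far from 1, whereas those of STAR and HSD17B1 run across 1.

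Cholesterol uptake and mitochondrial import genes differed little. SCARB1, the HDL receptor that takes up cholesteryl esters, had 1604 in the control and 1797 in the SMAD4-siRNA library, from 3407 and 4203 reads. Its ratio was 1.12 (1.07 to 1.17). TSPO, an outer mitochondrial membrane protein that binds cholesterol, had 4544 and 4461, from 3231 and 3493 reads. The ratio of TSPO was 0.982 (0.936 to 1.03), an interval that held 1 within a narrow span. STARD3, a late endosomal protein with the same lipid-binding domain as STAR, had 191.0 and 204, a ratio of 1.07 (0.930 to 1.23). Matched on the sum of values, the SMAD4-siRNA library gains 0.12 on the log2 scale, and TSPO then stood at 1.07 (1.02 to 1.12) and STARD3 at 1.16 (1.01 to 1.34). The side of 1 on which TSPO lies therefore depends on the scaling.

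STAR, the acute regulator of cholesterol transfer into mitochondria, was the lowest of the set in both libraries. It had 4.94 from 6 reads in the control library and 11.2 from 15 reads in the other. The ratio was 2.27, with an interval from 0.832 to 7.14 that holds both no difference and a large one. STARD3 stood at 38.6 times the level of STAR in the control library and at 18.2 times in the SMAD4-siRNA library. Where STAR lay among measured genes, its level was at the 17.2 percentile in the control library and the 26.7 percentile in the SMAD4-siRNA library.

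FDXR, the flavoprotein that passes electrons from NADPH to ferredoxin for every mitochondrial P450, had 203 in the control and 277 in the SMAD4-siRNA library. These rest on 115 and 173 reads, and the ratio was 1.37 (1.07 to 1.74). The level intervals of FDXR just overlapped, from 167 to 243 in the control library and from 237 to 321 in the other. FDX1L, a ferredoxin of iron-sulphur cluster assembly, had 1353 and 1350, a ratio of 0.998 (0.923 to 1.08).

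HSD3B1 gave the clearest higher value. It went from 12334 in the control library to 23378 in the SMAD4-siRNA library, on 9166 and 19130 reads, and the level intervals were 12083 to 12589 and 23048 to 23711. The ratio was 1.90 (1.85 to 1.94), just under the 2-fold rule, and 2.06 (2.01 to 2.11) with the libraries matched on the sum of values. HSD3B1 held a level above 99.0% of measured genes in the control library. Among the 9664 genes with at least 100 reads, 160 had a higher log2 ratio than HSD3B1. By smallest reads, which may leave out genes read as deeply, 159 genes had at least as many as HSD3B1, itself included. Of these 159, 2 had a higher log2 ratio: SLA-1, a porcine MHC class I gene, at a ratio of 2.83, and ISG12(A), an interferon-stimulated gene, at 2.40. Both were named after their values were seen. HSD3B1 took 63.1% of the summed level of the 9 genes in the control and 76.4% in the SMAD4-siRNA library. The other 8 genes summed to 7221 and 7219. Within a library, where scaling plays no part, HSD3B1 stood at 2.71 times TSPO in the control library and at 5.24 times TSPO in the SMAD4-siRNA library. Reads from near-identical copies of HSD3B1, if the genome holds any, could be split or merged with its own, since how reads were counted was not given in the sources used here.

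Of the 17-beta dehydrogenases 1 had few reads and the other was slightly lower. HSD17B1, the enzyme of oestradiol formation, had 9.31 in the control and 18.0 in the SMAD4-siRNA library, from 8 and 17 reads. Its ratio of 1.93 (0.789 to 5.17) was close to that of HSD3B1 in size, but a difference was not detectable at the recovered depth. HSD17B4, a peroxisomal enzyme that inactivates oestradiol and also serves beta-oxidation, had 483 and 398 from 1217 and 1104 reads. The ratio of HSD17B4 was 0.824 (0.759 to 0.894), or 0.894 (0.824 to 0.971) matched on the sum of values. Of the 2289 genes with at least as many reads, HSD17B4 included, 493 had a lower log2 ratio.

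CYP27A1 gave the largest difference of the set among genes with at least 100 reads. This mitochondrial P450 hydroxylates cholesterol at its side chain and takes its electrons from FDXR. Its value was 184 in the control library (157 to 213) and 53.7 in the SMAD4-siRNA library (40.4 to 69.8), on 171 and 55 reads. The ratio was 0.292 (0.212 to 0.398), and 0.317 (0.230 to 0.432) matched on the sum of values. Of the 9664 genes with at least 100 reads, 17 had a lower log2 ratio. FDXR stood at 1.10 times the level of CYP27A1 in the control library and at 5.16 times in the SMAD4-siRNA library. CYP27A1 is also known from macrophages, and leukocyte markers were examined beside it. The 9 of 10 leukocyte markers with a row summed to 646 in the control and 627 in the SMAD4-siRNA library, most of it CD14 at 579 and 566. The macrophage receptor CSF1R had 8 and 3 reads, a ratio of 0.341 (0.0582 to 1.42), and ITGAM had 4 and 9. TYROBP had 33 and 32 reads, AIF1 5 and 5, PTPRC 1 and 2 and LYZ 0 and 1, while CD163 and CD3E were listed at 0.

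**Figure D3:**
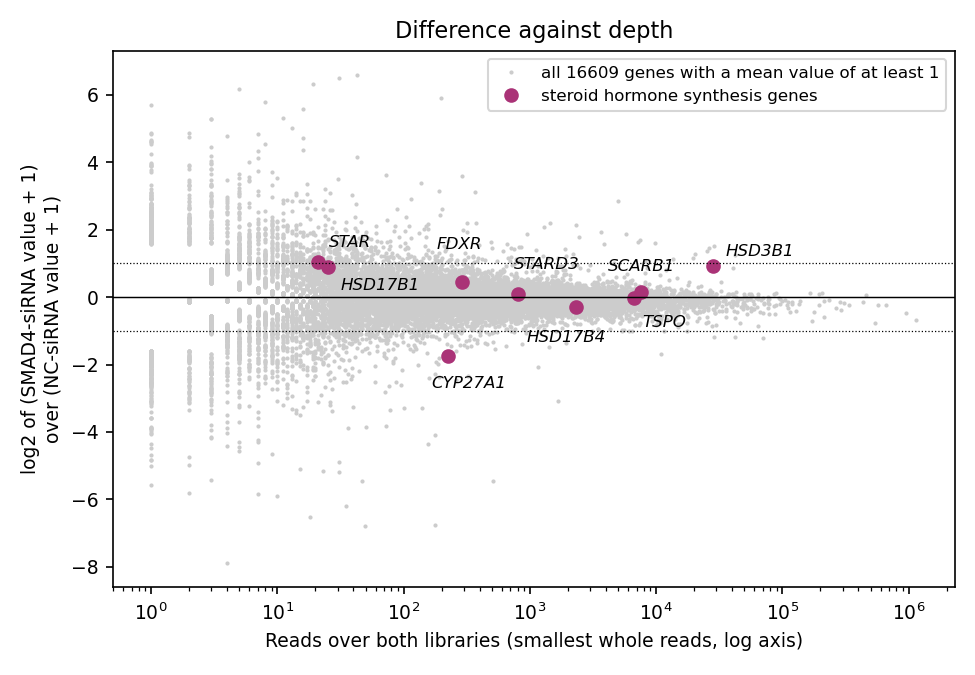
Log2 ratio of each gene, taken on value + 1 as SMAD4-siRNA over control, against its reads over both libraries on a log axis, with all 16609 measured genes in grey, the 9 genes in purple and dotted lines at 2-fold. The grey cloud narrows as reads increase: HSD3B1 lies on its upper edge and CYP27A1 on its lower edge, while STAR and HSD17B1 lie inside the wide part at under 30 reads.

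Other genes of the pathway were read from lists drawn up for this purpose with earlier results of these data known. Of 22 other steroid-forming enzymes and electron donors, 16 had a row and 8 had at least 100 reads, with a median log2 ratio of -0.22. None of the 8 was past 2-fold, 5 had an interval below 1 and 0 had one above 1. At that depth 32.4% of all genes had an interval below 1 and 17.6% had one above 1. HSD17B7, of cholesterol synthesis, was at 0.632 (0.503 to 0.793), HSD3B7, of bile acid synthesis, at 0.670 (0.618 to 0.726), and CYB5A, an electron donor, at 0.744 (0.670 to 0.825). HSD17B10 at 1.07, FDX1L and HSD17B12 at 0.958 were the highest. HSD3B7 thus differed in direction from HSD3B1. CYP11A1, CYP17A1, HSD17B3 and SRD5A3 shared with CYP19A1 and POR a listed 0 in both libraries. Steroid inactivating and conjugating enzymes had 5 genes with at least 100 reads, at a median of -0.26. Of these 5, 3 had an interval below 1, beside the same 32.4% of all genes. STS, the steroid sulphatase, at 0.773 and HSD17B14 at 0.831 were among the 3. HSD17B2, HSD11B1, SULT1A1 and SULT2A1 were listed at 0.

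In the list of cholesterol delivery, of 19 with at least 100 reads, 15 had a log2 ratio below 0, 8 had an interval below 1 and 0 had one above 1, with a median of -0.19. Of all genes with at least 100 reads, 57.9% had a log2 ratio below 0, 32.4% an interval below 1 and 17.6% one above 1. The endocytic receptor LRP1 went from 3835 to 2710, a ratio of 0.707 (0.695 to 0.719). NPC1, which exports cholesterol from lysosomes, was at 0.718 (0.659 to 0.782). STARD5 at 1.29 (0.951 to 1.74), ACOT7 at 1.07 and STARD6 at 1.07 were the highest. Over the 22 measured genes of this list the median was -0.10 as deposited and 0.02 matched on the sum of values. SCARB1 therefore had an interval above 1 where LRP1 and NPC1 had intervals below 1, and the order of these 3 ratios does not depend on scaling.

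Sterol hydroxylase and oxysterol response genes included 8 with at least 100 reads, at a median of 0.05. MYLIP, a ubiquitin ligase induced by oxysterols, had 34.7 and 15.8 from 94 and 47 reads, a ratio of 0.454 (0.313 to 0.651). MYLIP alone of the 8 was past 2-fold, where 1.12% of all genes at that depth were lower by as much. ABCA1, a cholesterol exporter with the same kind of regulation, was at 1.21 (1.01 to 1.45). ABCG1, another such exporter, was at 0.515 (0.266 to 0.964) on 30 and 17 reads. The oxysterol receptor NR1H3 was at 1.10 (1.002 to 1.22). OSBP, an oxysterol-binding protein, was at 0.798 (0.756 to 0.843), and CYP39A1 was at 0.691 with an interval that held 1 (0.471 to 1.01). CYP27B1 and SREBF1 were listed at 0. Peroxisomal genes, which work with HSD17B4, had 14 with at least 100 reads and a median of -0.003. EHHADH, another bifunctional enzyme of peroxisomal beta-oxidation, was at 0.733 (0.645 to 0.833) and ACOX3, an oxidase of the same pathway, at 0.830. Of these 14 genes 2 had an interval above 1 and 4 below 1, beside 17.6% and 32.4% of all genes at that depth. ACOT8 at 1.10 was among the 2 above, and PEX7 at 1.27 (0.915 to 1.78) had the highest ratio.

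In the gonadotropin and cAMP list 13 genes had at least 100 reads, with a median of -0.14, 7 intervals below 1 and 2 above 1. The shares of all genes at that depth were 32.4% below 1 and 17.6% above 1. ADCY9, AKAP12 and ADCY6 were at 0.724, 0.724 and 0.744, while PRKAR1B, an entry named from RefSeq, was at 1.75 (1.20 to 2.60) and CRTC2, a coactivator of CREB, at 1.17. RGS2, on 23 and 11 reads, was at 0.434 (0.191 to 0.927). LHCGR and ADCY7, the latter named from RefSeq, were listed at 0. Among the transcription factors, 10 had at least 100 reads and a median of -0.08, near the -0.06 of all genes at that depth. CEBPB was at 0.614 (0.514 to 0.732), FOXO1 at 0.708 and NR5A1, known as SF-1, at 0.849 (0.741 to 0.973). FOXL2, GATA4 and YY1 were at 1.11, 1.03 and 1.02 with intervals that held 1. The YY1 value is that of an entry typed as miscRNA and named from RefSeq. NR0B1, NR4A1 and SREBF2 were listed at 0. The glucocorticoid receptor NR3C1 was at 0.798, in a list of receptors of which 5 had at least 100 reads. With libraries matched on the sum of values, medians over all measured genes were 0.07 for the transcription factors against -0.05 as deposited, and 0.11 for the peroxisomal genes against -0.01. The same matching gave 0.03 for the other steroid-forming enzymes against -0.09, and 0.08 for the inactivating enzymes against -0.03. The median of all measured genes went from -0.05 to 0.07 in the same way, since matching scales every plain ratio alike.

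**Figure D4:**
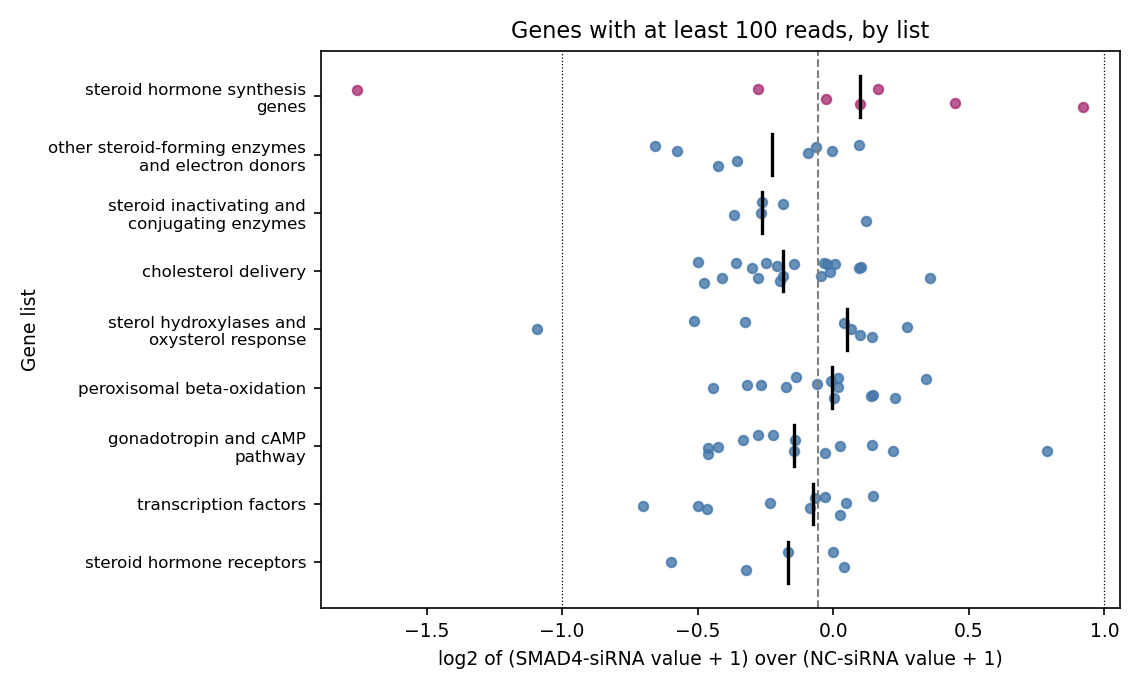
Log2 ratios, taken on value + 1 as SMAD4-siRNA over control, of genes with at least 100 reads, by list, with 1 point per gene spread at random in height. Black bars are list medians, the dashed line is the median of all genes with at least 100 reads at -0.06, and dotted lines mark 2-fold. CYP27A1 is the lowest point and HSD3B1 the highest, and MYLIP is the only plotted gene besides CYP27A1 beyond the dotted lines.

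Markers of granulosa and other cells were read beside these values. Granulosa markers summed to 5000.3 in the control and 5179 in the SMAD4-siRNA library, with a median log2 ratio of -0.03 over 9 genes with at least 100 reads. The activin subunit INHBA was at 1.31 (1.22 to 1.41), whereas CDH2 was at 0.806 (0.719 to 0.903), and the other 7 intervals held 1. Below that depth AMHR2, on 35 and 19 reads, was at 0.493 (0.266 to 0.886). Fibroblast and smooth muscle markers summed to 731460 and 490626, mostly ACTA2 and TAGLN. Of 11 such markers 7 had an interval below 1 and 2, DES at 1.16 and COL1A1 at 1.06, had one above 1. LUM at 0.583, ACTA2 at 0.622 (0.619 to 0.624) and DCN at 0.743 were the lowest. Of genes with at least 1000 reads, 46.6% had an interval below 1 and 19.8% above 1, though LUM had only 376 reads. The theca markers had 10 rows and summed to 10133 and 8717, mainly COL15A1 and ANPEP. CYP17A1, INSL3 and LHCGR of that list were listed at 0, which says nothing of their expression here. Endothelial markers summed to 453 and 354, with ERG at 0.582 and PECAM1 at 0.875. In pooled cells, fewer cells of a type and less RNA per cell cannot be told apart. The part of these markers in the higher HSD3B1 and the lower CYP27A1 values was not tested.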

How the data were processed

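RNA-seq (Ion Total RNA-Seq Kit, Ion Torrent Proton) was made from 1 pooled library of 3 individuals for each of 2 siRNA groups, per the labels. The authors deposited RPKM values scaled by the upper quartile, per the file names. Aligner, counter, annotation and genome build were not given in the sources used here. All values were used as deposited. With divisors of 890 (control) and 980 (SMAD4-siRNA), all 18428 genes above 0 gave whole reads at some whole length no longer than 40000 bases (tolerances: 2e-09 relative, 1e-06 absolute), and the smallest solution was kept. Log2 ratios used a pseudocount of 1 and a mean value of at least 1. Entries without a symbol were named from RefSeq (names only). Steps were tested on simulated data (Python 3.11.15, scipy 1.17.1). The genes and lists were chosen with earlier results of these data known. Named by rule were the set, SMAD4, up to 3 genes at each end of a list with at least 100 reads, any gene past 2-fold at that depth, and genes listed at 0. Some genes that this rule takes are not reported here. Other named list genes, RGS2, ABCG1 and AMHR2 among them, were chosen after their values were seen. RGS2, ABCG1 and AMHR2 each had under 100 reads and an interval below 1. Some list genes with higher values at such depth were left out, ACBD3 at 1.50 (0.791 to 2.91) among them. So was PGR, below the minimum mean value, on 0 and 6 reads. Alternatives covered pseudocount, scaling, minimums and fold threshold.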

Additional observations from a re-analysis of the deposited data

How the results depend on the processing

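No paired analysis was possible because each group is 1 library. Of 62 log2 ratios of the 9 genes under 7 alternatives that change values, 53 stayed inside the gene's counting interval. None of the 5 genes with an interval off 1 changed sign. Every change of scaling raised the log2 ratios of these 5, and a pseudocount cannot change a sign. Those above 1 could therefore not have changed sign. TSPO, whose interval held 1, went from -0.03 to above 0 with each change of scaling, at 0.021 centred on the median and 0.015 on the trimmed mean. Rescaling each library to sum to 1000000 gave 1.04 for HSD3B1, 0.28 for SCARB1, 0.091 for TSPO and -0.16 for HSD17B4. Matching the sums, chosen after seeing the data, gave 1.04 for HSD3B1, 0.28 for SCARB1 and 0.092 for TSPO. Centring gave 0.97 (median) and 0.96 (trimmed mean) for HSD3B1. Centring shifts every log2 ratio alike. Matching scales every plain ratio alike, but on value + 1 it shifts low genes slightly less. Genes of the set higher by the fold threshold numbered 1 as reported, 0 with a pseudocount of 5, with a 4-fold threshold and with at least 100 reads, 3 at 1.5-fold (STAR, HSD3B1 and HSD17B1) and 2 (STAR and HSD3B1) with matched sums. Those lower numbered 1, and 0 at 4-fold. Of all genes, 1191 were higher and 1110 lower, against 466 and 437 with a pseudocount of 5, 208 and 112 rescaled to 1000000, 572 and 546 with a mean value of at least 5, 2245 and 2277 at 1.5-fold, 378 and 351 at 4-fold, and 128 and 108 with at least 100 reads. Rescaling to 1000000 makes all values smaller, so the pseudocount and the minimum also weigh more. Matched sums, a change of scaling alone, gave 1417 and 976. Depth limits STAR and HSD17B1 most, at 21 and 25 reads over both libraries.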
